A study of Mus musculus with 6 samples.

Results

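Processed pseudogenes are copies of spliced mRNAs that were written back into the genome. The transcripts described here are the 2787 that the deposited table calls processed pseudogene and lists above 0 TPM (a transcript's abundance per length, relative to the library's total) in at least 1 of 6 mouse optic nerve libraries, out of 9941 transcripts of that class. They are a part of the 76034 transcripts of any class that were above 0 in at least 1 library. Members just inside the rule have a single low value (the lowest was 0.0183 TPM), and those just outside are listed at 0 in all 6 libraries. Members were thus chosen by their measured TPM in these libraries, and counts of libraries above 0 are a description with no test. Most carry a gene model name (2382 with a Gm number), and 357 carry a symbol that names a source gene followed by -ps.

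The optic nerves came from mice at 6 weeks of age, a model of Nf1 optic glioma, and an obesogenic diet was compared with a control diet. The series describes the diet exposure as maternal. All mice had the genotype GFAP-Cre; Nf1-Flox/R681X, so both diets share a floxed Nf1 allele, an R681X allele and a GFAP-Cre transgene. The GFAP promoter drives Cre in astrocytes and their precursors. The control group (3 libraries) had PicoLab 5053* as its labelled diet. The label of the obesogenic group (3 libraries) reads AIN-76A w/ 58% Fat Energy, together with Sucrose and Red. Poly(A) RNA of bulk nerve was measured, so fewer cells of a type and less RNA per cell cannot be told apart. The labels do not say that the libraries came from separate animals or litters, and p-values therefore reflect only how these samples vary, which could be technical variation. Of the markers of oligodendrocytes and astrocytes, 0 of 7 and 0 of 6 were at 0 throughout. The summed oligodendrocyte list lay between 61624 and 69531 TPM under the control diet and between 26756 and 54909 TPM under the obesogenic diet. Meningeal fibroblast markers, 0 of 6 at 0 throughout, summed to 1620, 1446 and 1072 TPM in control libraries 1, 2 and 3 and to 497, 508 and 432 TPM in obesogenic libraries 1, 2 and 3, so this list, like the oligodendrocyte list, was lower in every obesogenic library. Obesogenic library 2 stood apart: immunoglobulin transcripts made up 20.6% of its listed TPM and at most 0.0439% in any other library.

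A processed pseudogene arises when the enzymes of LINE retrotransposons reverse transcribe an mRNA and insert the copy elsewhere. The copy lacks introns and usually lacks a promoter of its own. Genes that are strongly expressed in the germ line, such as those of ribosomal proteins, glycolysis and cyclophilin, have left many copies in mammalian genomes. A young copy still has nearly the letters of its source, and a short read from either place can then fit both. The TPM of such a copy depends on how the quantification software shares those reads out, so every value below that rests on a near-identical copy is uncertain in that sense.

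How closely a copy can match its source is shown by members on which the results turn. Sequences are those of the same transcript identifiers in GENCODE M21 (GRCm38), since the annotation release behind the deposited table is not given in the sources used here. Each is compared with the closest protein-coding transcript found by blastn, over bases that lie in that transcript's coding sequence, 5′ to 3′ in the sense of the gene. Capitals mark the bases that differ, and positions count from 1 at the first base printed. Gm10123 (chr9:96895658-96896147, plus strand), the most abundant member, had no difference from Ppia over its 490 bases, and its first 240 are printed.
Gm10123 and Ppia: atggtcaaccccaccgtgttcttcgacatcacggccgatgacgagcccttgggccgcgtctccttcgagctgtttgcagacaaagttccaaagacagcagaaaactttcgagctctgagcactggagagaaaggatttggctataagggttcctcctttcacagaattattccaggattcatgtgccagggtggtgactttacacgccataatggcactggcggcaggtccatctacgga
Gm9836 (chr5:24256822-24257037, plus strand), listed at 0 in every obesogenic library, differed from Sumo2 by 1 base, C9A, in the 213 bases printed.
Gm9836: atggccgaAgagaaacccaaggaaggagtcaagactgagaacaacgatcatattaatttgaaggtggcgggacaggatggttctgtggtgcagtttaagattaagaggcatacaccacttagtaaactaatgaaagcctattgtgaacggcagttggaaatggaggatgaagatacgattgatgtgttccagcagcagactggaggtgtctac
Sumo2: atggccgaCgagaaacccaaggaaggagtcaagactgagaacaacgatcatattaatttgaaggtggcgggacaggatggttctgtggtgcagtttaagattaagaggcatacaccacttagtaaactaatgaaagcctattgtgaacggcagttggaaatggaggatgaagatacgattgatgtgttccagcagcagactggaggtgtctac
Gm15459 (chr5:5781615-5783555, minus strand), the member among the 10 most abundant whose libraries differed most, had 99.7% identity to Hspa8 over 1941 bases. The 240 bases printed hold 2 differences, C105T and C240T.
Gm15459: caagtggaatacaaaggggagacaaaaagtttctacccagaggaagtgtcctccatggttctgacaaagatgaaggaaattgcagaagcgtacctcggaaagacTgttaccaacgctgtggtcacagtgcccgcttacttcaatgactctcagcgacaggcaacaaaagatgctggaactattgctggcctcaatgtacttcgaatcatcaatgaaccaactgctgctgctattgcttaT
Hspa8: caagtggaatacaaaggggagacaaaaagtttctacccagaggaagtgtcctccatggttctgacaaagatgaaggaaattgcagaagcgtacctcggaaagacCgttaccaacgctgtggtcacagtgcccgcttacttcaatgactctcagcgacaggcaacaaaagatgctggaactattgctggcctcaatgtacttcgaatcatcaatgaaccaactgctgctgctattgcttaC
Gm3150 (chr15:72913357-72913560, plus strand), also listed at 0 in every obesogenic library, carried G19A, A28T, G74A and G168A relative to Gng5 in the 180 bases printed.
Gm3150: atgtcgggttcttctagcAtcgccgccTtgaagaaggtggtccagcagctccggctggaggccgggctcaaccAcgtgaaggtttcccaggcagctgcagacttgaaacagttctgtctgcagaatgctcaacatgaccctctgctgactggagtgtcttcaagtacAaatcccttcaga
Gng5: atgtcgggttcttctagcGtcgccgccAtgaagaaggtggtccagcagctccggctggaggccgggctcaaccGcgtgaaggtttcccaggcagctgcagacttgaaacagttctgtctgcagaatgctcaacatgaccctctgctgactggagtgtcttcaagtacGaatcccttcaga
Gm3828 (chr10:80954454-80954710, minus strand), with the same zero pattern, is a more diverged copy with 14 differences from Atp5j2 in 92 bases.
Gm3828: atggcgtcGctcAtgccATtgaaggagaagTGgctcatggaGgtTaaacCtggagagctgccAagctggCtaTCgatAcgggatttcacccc
Atp5j2: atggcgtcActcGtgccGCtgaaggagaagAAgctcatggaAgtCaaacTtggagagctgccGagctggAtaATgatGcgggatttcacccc
Gm37201 (chr9:108160279-108160801, plus strand), listed at 0 in every control library, had 91.0% identity to Gcsh over 523 aligned bases. The 180 bases printed hold 7 differences.
Gm37201: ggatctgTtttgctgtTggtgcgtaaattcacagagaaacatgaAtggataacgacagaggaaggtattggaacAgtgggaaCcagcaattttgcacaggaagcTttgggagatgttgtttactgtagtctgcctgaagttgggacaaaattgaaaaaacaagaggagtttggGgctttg
Gcsh: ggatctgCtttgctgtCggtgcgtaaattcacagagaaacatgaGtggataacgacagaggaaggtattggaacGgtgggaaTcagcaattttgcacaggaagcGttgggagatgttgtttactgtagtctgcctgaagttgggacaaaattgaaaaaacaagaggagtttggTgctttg

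The members summed to about 2% of the listed TPM in both diets. Control libraries 1, 2 and 3 had shares of 1.88%, 2.06% and 1.96%. Obesogenic libraries 1, 2 and 3 had shares of 1.95%, 1.80% and 2.28%. The mean was 1.97% ± 0.0906 in control and 2.01% ± 0.246 in obesogenic libraries (SD, n = 3). The ranges overlap, and the difference of 0.0468 percentage points is smaller than the spread within diets (pooled SD 0.185). With immunoglobulin transcripts left out of the total, the share of obesogenic library 2 was 2.27% instead of 1.80%. The difference was then 0.202 percentage points, no longer smaller than that spread (SD 0.0911 in control and 0.185 in obesogenic libraries), and the ranges still overlapped. Leaving out obesogenic library 3, which has the highest share, turned the difference to -0.0880. In TPM, the members summed to between 15041 and 16425 in control and between 14987 and 17992 in obesogenic libraries.

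A few transcripts carried most of this total. The 10 members with the highest mean held between 35.1% and 39.5% of the members' TPM in each library, and the 100 highest held between 79.96% and 82.4%. The median member had a mean of 0.244 TPM. Filtering for at least 1 TPM in at least 3 libraries kept 653 members, which held 95.4% of the mean TPM, and 2134 did not pass.

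Members closest in sequence to a coding gene were the most abundant. Of 2787 members, 2770 had a sequence in M21 and 2718 had a match to a protein-coding transcript of another gene, with a median identity of 95.4%. The 78 members with 100% identity over the aligned stretch, 2.80% of members, held 54.0% of the TPM. In 71 of them the match covered the full length of the copy. Together, the 421 members at 99% identity or more held 83.8%. The median of the members' mean levels was 29.5 TPM at 100%, 1.64 TPM from 99% to under 100%, 0.798 TPM from 98% to 99%, 0.279 TPM from 95% to 98% and 0.114 TPM from 90% to 95%. These are TPM, which are per length. Reads that fit both a copy and its source were shared out in an unknown way, so the levels of the classes near 100% are less certain. Of all members, 642 had an open frame at least 95% as long as the coding sequence of the closest gene, and they held 80.8% of the TPM.

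**Figure D1:**
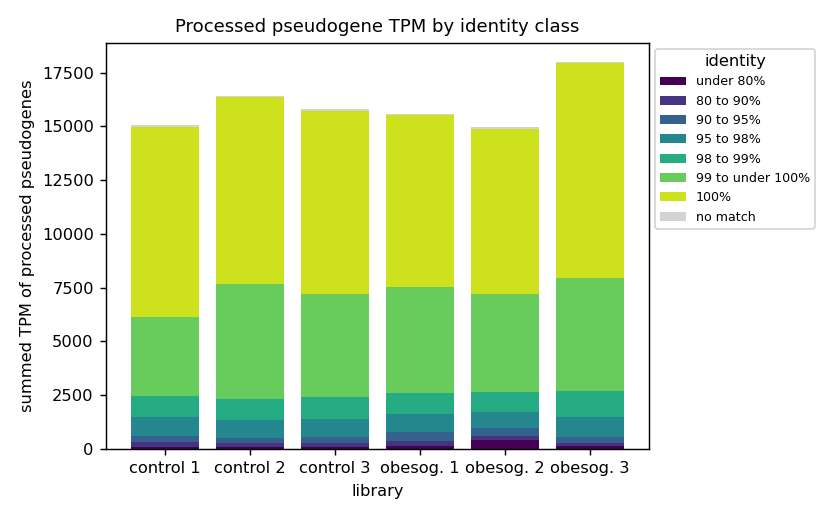
Stacked bars give the summed TPM of processed pseudogenes in each of the 6 libraries, split by identity to the closest protein-coding transcript. The members at 100% identity summed to between 7699 and 10009 TPM in each library, and they form the largest class in all 6.

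**Figure D2:**
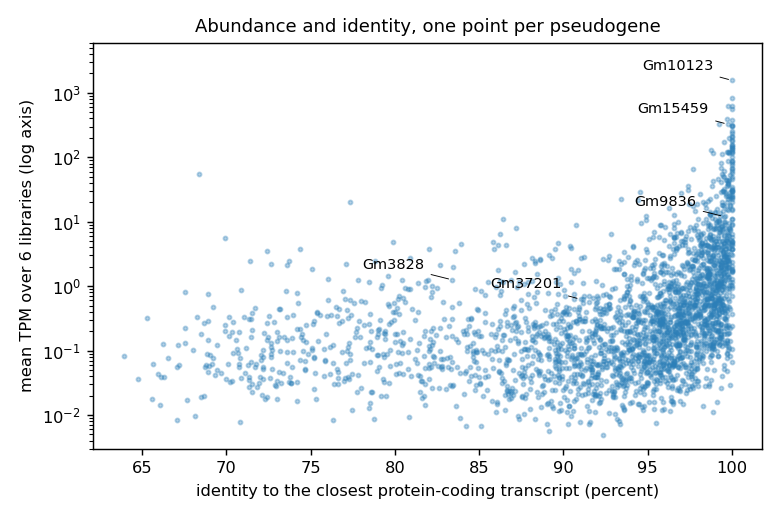
Each point is 1 of 2718 pseudogene transcripts, with identity to its closest coding transcript in percent on the x axis and mean TPM over 6 libraries on a logarithmic y axis. The members above 100 TPM all lie near 100% identity.

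The most abundant members copy housekeeping genes. Gm10123 copies Ppia, which encodes cyclophilin A, a protein-folding isomerase. It measured 1618, 1678 and 1484 TPM under the control diet and 1395, 1042 and 2137 TPM under the obesogenic diet. The obesogenic libraries lay on both sides of the control range (limma log2 change -0.12, SE 0.29, adjusted p = 0.936). The Ppia gene itself, summed over its listed transcripts, lay between 105 and 259 TPM, so the copy took between 86.2% and 90.8% of their joint TPM in every library. Gm12481, a copy of Serf2, measured 1047, 977 and 819 TPM under the control diet and 729, 751 and 678 TPM under the obesogenic diet. Every obesogenic library lay below every control library, as for 6.11% of all transcripts tested, but the difference did not pass (limma log2 change -0.39, SE 0.19, adjusted p = 0.655). Serf2 was at 154 ± 22.5 TPM under the control diet and 132 ± 6.88 TPM under the obesogenic diet (SD, n = 3).

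Other abundant members had overlapping libraries. Gm12918, a copy of the ribosomal protein gene Rpl13, measured 618 ± 35.03 against 638 ± 46.9 TPM (control against obesogenic, SD, n = 3, here and in the rest of this paragraph). Atp6v0c-ps2 copies a subunit of the vacuolar proton pump and measured 568 ± 142 against 685 ± 107 TPM. Its source Atp6v0c was listed at only 3.91 to 31.3 TPM, and the copy held between 92.9% and 99.4% of the pair. Gm12338, a copy of the cytochrome c oxidase subunit gene Cox7c, measured 592 ± 59.9 against 514 ± 116 TPM. Oaz1-ps copies the antizyme gene that restrains polyamine synthesis and measured 366 ± 27.1 against 411 ± 105 TPM, while Oaz1 was at 500.5 ± 34.8 against 477 ± 93.5 TPM. Gm10359, a copy of the glycolytic enzyme gene Gapdh, measured 322 ± 79.5 against 447 ± 110 TPM. Rps2-ps13 and Rps23-ps1, copies of small ribosomal subunit genes, measured 282 ± 94.5 against 372 ± 82.6 TPM and 304 ± 22.6 against 320 ± 31.2 TPM. None of these passed the threshold (limma adjusted p from 0.713 to 0.966).

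Members were present less evenly across libraries than transcripts in general. Between 1396 and 1512 members were above 0 in a control library and between 1469 and 1529 in an obesogenic library. Of the 2787, 661 (23.7%) were above 0 in all 6 libraries and 899 (32.3%) in only 1. Over all 76034 transcripts the shares were 39.9% in all 6 and 16.9% in only 1. Control library 1 had 196 members seen nowhere else, control libraries 2 and 3 had 115 and 122, and the obesogenic libraries had 154, 156 and 156. Members above 0 in fewer libraries had lower means over all 6 libraries and were less similar to a coding gene. Such a mean includes the libraries at 0, which by itself lowers it for members above 0 in few libraries. The median mean level was 0.0612 TPM for members above 0 in 1 library and 2.56 TPM for those above 0 in all 6, with median identities of 91.5% and 98.1%. TPM keeps no depth, so a listed 0 gives no upper limit.

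**Figure D3:**
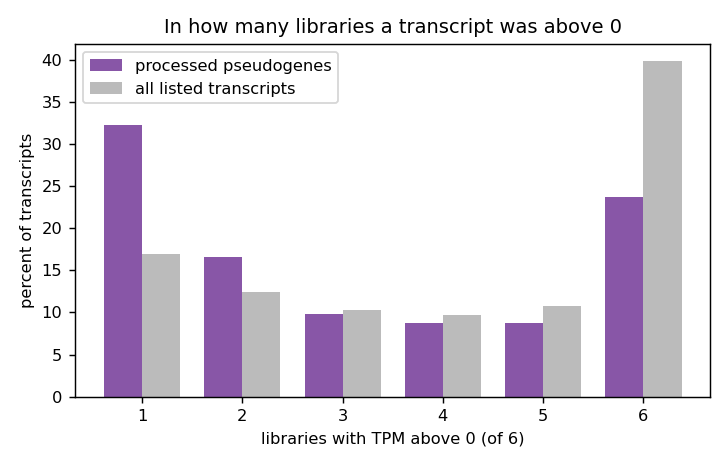
Bars give the percent of transcripts above 0 TPM in exactly 1 to 6 libraries, for 2787 processed pseudogenes and for all 76034 listed transcripts above 0 anywhere. Pseudogenes have more transcripts in 1 library (32.3% against 16.9%) and fewer in all 6 (23.7% against 39.9%).

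Zeros that followed diet were rare. Above 0 in all 3 control libraries and listed at 0 in all 3 obesogenic libraries were 11 members, 0.395% of the 2787, against 0.416% of all transcripts. In the other direction were 12 members, 0.431%, against 0.863% of all transcripts. The first share is near its background and the second is below it. With at least 2 libraries of one diet in place of 3, 83 members (2.98%, against 2.48% of all transcripts) were seen under control only and 132 (4.74%, against 4.15%) under obesogenic only. Leaving out any 1 library loosens the condition, and the counts then ran from 20 to 41 for control only and from 30 to 58 for obesogenic only.

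The members seen under control only included those at the highest levels. Gm9836, the copy of the ubiquitin-like modifier gene Sumo2 printed above, measured 32.1, 17.8 and 22.1 TPM in control libraries and was listed at 0 in every obesogenic library. Gm3150, the copy of Gng5, which encodes a G protein gamma subunit, was at 3.88, 3.69 and 3.76 TPM under the control diet and at 0 in all obesogenic libraries. Gm3828, the copy of the ATP synthase subunit gene Atp5j2, was at 1.53, 4.48 and 1.53 TPM in control. Gm15900, Gm9449 and Rps12-ps16, whose closest genes are Evi5, Socs6 and Rps12, had control means of 1.15, 0.703 and 0.662 TPM. The other 5 had means over all libraries from 0.0374 to 0.297 TPM.

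The closest genes of the 6 copies named were above 0 in all 6 libraries. Sumo2 was at 319 ± 13.0 TPM under the control diet and 316 ± 65.3 TPM under the obesogenic diet (SD, n = 3). Another copy of Sumo2, Gm10241, with 100% identity, was listed at 83.8, 0 and 34.5 TPM under the control diet and at 34.6, 29.9 and 0 TPM under the obesogenic diet, so its zeros did not follow diet. The 7 members closest to Sumo2 summed to 119, 17.8 and 57.7 TPM under the control diet and 44.6, 32.0 and 5.95 TPM under the obesogenic diet, which overlap. Gng5 lay between 3.64 and 8.09 TPM under the control diet and between 3.06 and 6.22 TPM under the obesogenic diet. Atp5j2 was at 236 ± 12.3 against 242 ± 86.1 TPM.

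The 12 members seen under obesogenic only were all low. Gm37201, the copy of Gcsh, which encodes a protein of the glycine cleavage system, measured 1.44, 0.605 and 1.71 TPM under the obesogenic diet 1, 2 and 3. Gm6058, closest to the autophagy gene Gabarapl2, measured 0.537, 1.38 and 0.509 TPM. Gm11955 and Gm11759, closest to the ribosomal protein genes Rpl29 and Rps27a, had obesogenic means of 0.740 and 0.614 TPM. Rpl13-ps1, for which no coding match was found, had a mean of 0.600 TPM and Gm14627, closest to Hmgb1, of 0.488 TPM. None of the 12 passed the filter on low values, so none was tested.

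**Figure D4:**
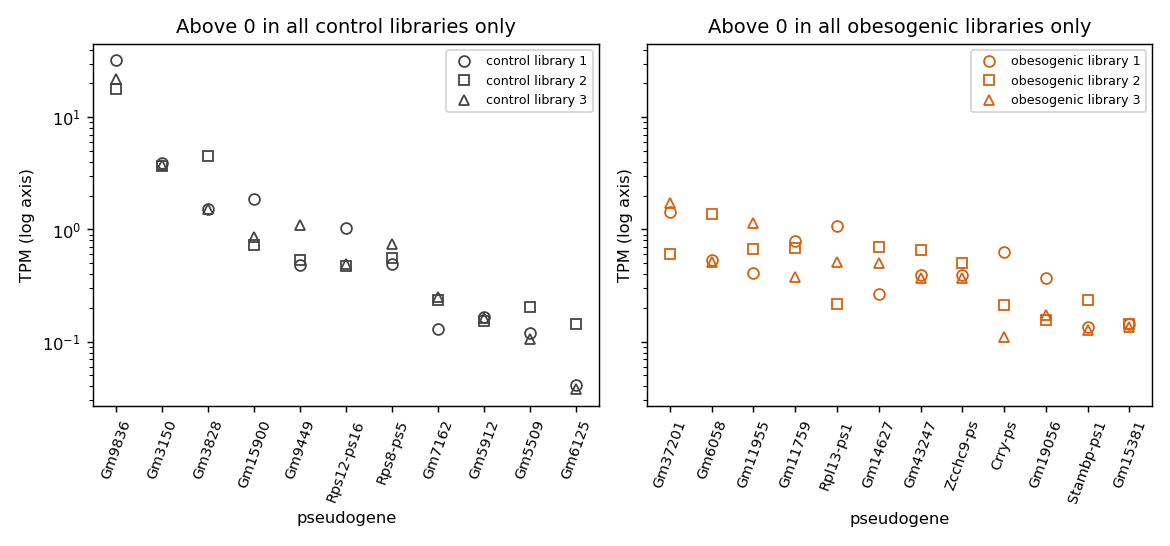
Points give TPM on a logarithmic axis for the 11 members above 0 in control libraries only (left) and the 12 above 0 in obesogenic libraries only (right), with 1 symbol per library; the diet not shown is at 0. Gm9836 stands highest at 17.8 to 32.1 TPM, and no member on the right exceeds 1.71 TPM.

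The place of these small sets in the genome was counted without a test. By M21, 11 of the 12 obesogenic-only members lay in an intron of another gene, 5 on the same strand and 6 on the opposite one, and 1 was intergenic. Of the 11 control-only members, 3 lay in introns and 8 were intergenic. Over all 2787 members, 1068 (38.3%) lay in introns, 1582 (56.8%) were intergenic and 120 overlapped an exon of another gene. In the wider sets with at least 2 libraries, introns held 66 of 132 obesogenic-only members and 31 of 83 control-only members. Of the 14 intron hosts of either set, 3 were not analysed here, and the libraries of the other 11 overlapped between diets, with Gm773 at 0 throughout. Bsn, a presynaptic scaffold gene whose intron holds Gm37201, measured 0.319 to 0.642 TPM under the control diet and 0.348 to 0.960 TPM under the obesogenic diet. Rasal2, host of Gm6058, was at 26.6 ± 0.791 against 25.4 ± 5.18 TPM, and Slc2a13, host of Gm15381, at 12.0 ± 0.462 against 23.1 ± 14.6 TPM. Neuron markers, all 6 of them listed above 0 in some library, summed to 24.4 to 52.9 TPM under the control diet and to 200, 48.7 and 606 TPM under the obesogenic diet 1, 2 and 3. Their part in the presence of intronic members was not tested.

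In the test over all transcripts, 1 member was called, and it was lower under the obesogenic diet. Of 35408 transcripts tested with limma on log2(TPM + 1), 2 passed an adjusted p of 0.05 (0.00565%), 1 of them lower in obesogenic libraries (0.00282%), and that one was the only call among the 653 tested members. With 3 libraries a diet, an exact permutation test cannot go below a two-sided p of 0.1, so none was run. Gm9836 had a log2 difference of -4.60 (SE 0.34, adjusted p = 0.0496), a value set in part by the pseudocount of 1, since 1 group is at 0. It passed the filter through its control libraries alone. The other transcript, higher in obesogenic libraries, was a protein-coding isoform of Ctbp1. The call on Gm9836 was lost with a pseudocount of 0.1 (adjusted p = 0.0650), without any filter (0.0812), after rescaling without immunoglobulin (0.0535), and on leaving out any 1 library (0.0663 to 0.422). An unadjusted p under 0.05 was reached by 32 members (4.90%), 14 higher and 18 lower, against 8.46% of all transcripts.

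Members whose libraries did not overlap between diets numbered 31 higher (4.75%, against 7.43% of all transcripts) and 32 lower (4.90%, against 6.11%). On the higher side by p, Gm45380, closest to Rpl31 and lying in an intron of Clpb, measured 1.77, 3.42 and 2.61 TPM under the control diet and 12.2, 6.19 and 8.83 TPM under the obesogenic diet (log2 change 1.47, adjusted p = 0.331). Gm6969, a copy of the respiratory chain gene Cox7a2l, was the most abundant of the 8 with the smallest p, at 46.4 ± 13.7 against 84.6 ± 18.7 TPM, with Cox7a2l itself between 79.5 and 113 TPM. Gm12254, Gm4540, Gm38317, Rpl13-ps6, Fabp3-ps1 and Rps19-ps4 had log2 changes of 1.98, 1.47, 2.05, 0.95, 1.43 and 0.91. Fabp3, a fatty acid binding protein gene and the source of Fabp3-ps1, measured 14.3, 9.53 and 10.3 TPM under the control diet and 31.8, 4.96 and 84.8 TPM under the obesogenic diet, with its lowest value in obesogenic library 2. None of these 8 passed (limma adjusted p from 0.331 to 0.538).

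On the lower side, Gm8116, a copy of Carnmt1, measured 22.7, 24.1 and 5.14 TPM under the control diet and 2.68, 0 and 1.90 TPM under the obesogenic diet (log2 change -2.81, adjusted p = 0.342). Carnmt1 itself had a log2 change of 1.28 (limma on gene sums, adjusted p = 0.517). Gm10163, a copy of the ribosomal protein gene Rpl21, measured 39.1, 29.1 and 44.0 TPM under the control diet and 15.7, 18.4 and 25.3 TPM under the obesogenic diet (log2 change -0.89, adjusted p = 0.419). Rpl21 was at 101 ± 4.59 against 116 ± 16.9 TPM. Gm44954 (no coding match), Gm11914 (closest to Hmgn5) and Rps15a-ps3 had log2 changes of -1.07, -1.77 and -1.50 and did not pass, and neither did Gm3150 and Gm3828 (adjusted p from 0.154 to 0.422 for these 5). Gm3150, Gm3828 and Gm11914 reached 1 TPM in control libraries alone, as Gm9836 did, so they entered the test through the diet in which they are high. Of the tested members, 8 entered in that way through control and 3 through obesogenic libraries.

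Ribosomal protein copies were the largest family. By symbol, 153 members named a ribosomal protein gene, and their sum was 2650 ± 269 TPM under the control diet and 2899 ± 337 TPM under the obesogenic diet (SD, n = 3). By closest coding gene, a grouping made after values were seen, 726 members summed to 5161 ± 384 against 5658 ± 664 TPM, 33.9% of the members' TPM. Of the 197 that were tested, 0 passed, 15 were higher without overlap (7.61%, near the 7.43% of all transcripts) and 6 lower (3.05%, against 6.11%). The 88 protein-coding ribosomal protein genes summed to 11790 ± 569 against 12021 ± 1519 TPM. In the limma fit over 14364 genes, 0 of the 84 tested passed, with 4 at an unadjusted p under 0.05 (1575 of all 14364 genes reached it), and 1 gene of all 14364 (0.00696%) passed.

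Copies of genes for chromatin and nuclear proteins were lower in sum, by a grouping also made after values were seen. The 144 members closest to such genes summed to 708, 754 and 730 TPM under the control diet and 648, 658 and 554 TPM under the obesogenic diet, without overlap. Of 53 tested, 9 were lower without overlap (17.0%, against 6.11% of all transcripts), 0 were higher, and 0 passed. The 9 were copies of Hmgb1 (Gm5527, Gm10075, Gm3851 and Gm5853), H3f3a (Gm12657 and Gm10257), Ptma (Gm9800 and Gm4617) and Hmgn5 (Gm11914). Copies of the same gene can share reads, so these members are not independent and the 2 shares are not alike. The summed oligodendrocyte markers (61624 to 69531 against 26756 to 54909 TPM) and meningeal fibroblast markers (1072 to 1620 against 432 to 508 TPM) were also lower without overlap, and their part in these sums was not tested. The 68 copies of Hmgb1, which encodes a DNA-bending chromatin protein, summed to 392 ± 24.8 against 314 ± 17.3 TPM, with no overlap, while the Hmgb1 gene overlapped between 94.0 and 155 TPM under the control diet and between 79.6 and 129 TPM under the obesogenic diet. The 23 copies of H3f3a, a histone H3.3 gene, summed to 53.0 ± 8.67 against 35.3 ± 6.90 TPM. H3f3a itself was at 445 ± 24.9 against 300.5 ± 49.9 TPM (limma on gene sums, log2 change -0.58, adjusted p = 0.372). The copy of Hist2h2aa1 had a lower mean under the obesogenic diet (145 ± 62.2 against 78.2 ± 34.5 TPM), but its libraries overlapped. It measured 83.4, 208 and 145 TPM under the control diet and 108, 40.4 and 86.0 TPM under the obesogenic diet. Not all copies in this family were lower. The 4 copies of H2afz summed to 57.1, 22.9 and 59.9 TPM against 73.9, 90.9 and 41.7 TPM, with obesogenic libraries 1 and 2 above every control library. Symbols placed 14 members in this family. Their sums of 39.0 to 46.9 TPM under the control diet and 26.8 to 38.3 TPM under the obesogenic diet did not overlap either. Of the 9 of these that were tested, however, 0 were lower and 0 were higher without overlap.

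The remaining families overlapped between diets or held few tested members. The 138 copies of Gapdh were the largest set of copies of 1 gene and summed to 776 ± 70.5 against 937 ± 256 TPM, beside 903 ± 59.7 against 1133 ± 364 TPM for Gapdh itself. Copies of respiratory chain genes (49 members) summed to 1525 ± 93.2 against 1474 ± 412 TPM, and copies of chaperone and isomerase genes (76) to 2065 ± 254 against 2021 ± 479 TPM. Copies of translation factor genes (66) summed to 287 ± 33.8 against 311 ± 19.6 TPM, and copies of cytoskeletal genes (45) to 120 ± 17.3 against 119 ± 28.9 TPM. Copies of splicing and RNA-binding protein genes (81) lay between 167 and 194 TPM under the control diet and between 197 and 286 TPM under the obesogenic diet, without overlap, and 0 of 14 tested passed. Copies of proteasome and ubiquitin genes (59) summed to 499 ± 69.3 against 528 ± 69.0 TPM and include Gm9836. Ferritin copies (10) summed to 38.04 ± 6.62 against 36.7 ± 14.2 TPM.

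Within a diet, some copies were high in one library and low or at 0 in the next. For Rpl30, and for Rpsa under the control diet, the source gene moved the other way, which was not general. The 10 copies of Rpl30 summed to 15.1, 113 and 16.8 TPM under the control diet and 14.1, 113 and 117 TPM under the obesogenic diet, while Rpl30 measured 132, 51.4 and 136 TPM and 115, 72.3 and 70.05 TPM. Copies and gene together ran only from 129 to 187 TPM. The 16 copies of Rpsa summed to 11.1, 100.2 and 13.1 TPM under the control diet and 98.8, 96.0 and 125 TPM under the obesogenic diet, and the total with Rpsa ran from 161 to 229 TPM. A pair of Rps12 copies with 100% identity took turns. Rps12-ps3 was at 90.1, 0 and 110 TPM under the control diet and 0, 75.6 and 95.7 TPM under the obesogenic diet, and Rps12l1 at 0, 113 and 0 TPM and 60.4, 0 and 0 TPM, so each library had 1 of them above 0 and the other at 0. Gm15459 measured 10.04, 481 and 415 TPM under the control diet and 709, 317 and 19.8 TPM under the obesogenic diet. Hspa8, a constitutive chaperone gene, showed no opposite pattern. It lay between 468 and 806 TPM, and the joint total with its 10 copies ran from 529 to 1530 TPM.

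**Figure D5:**
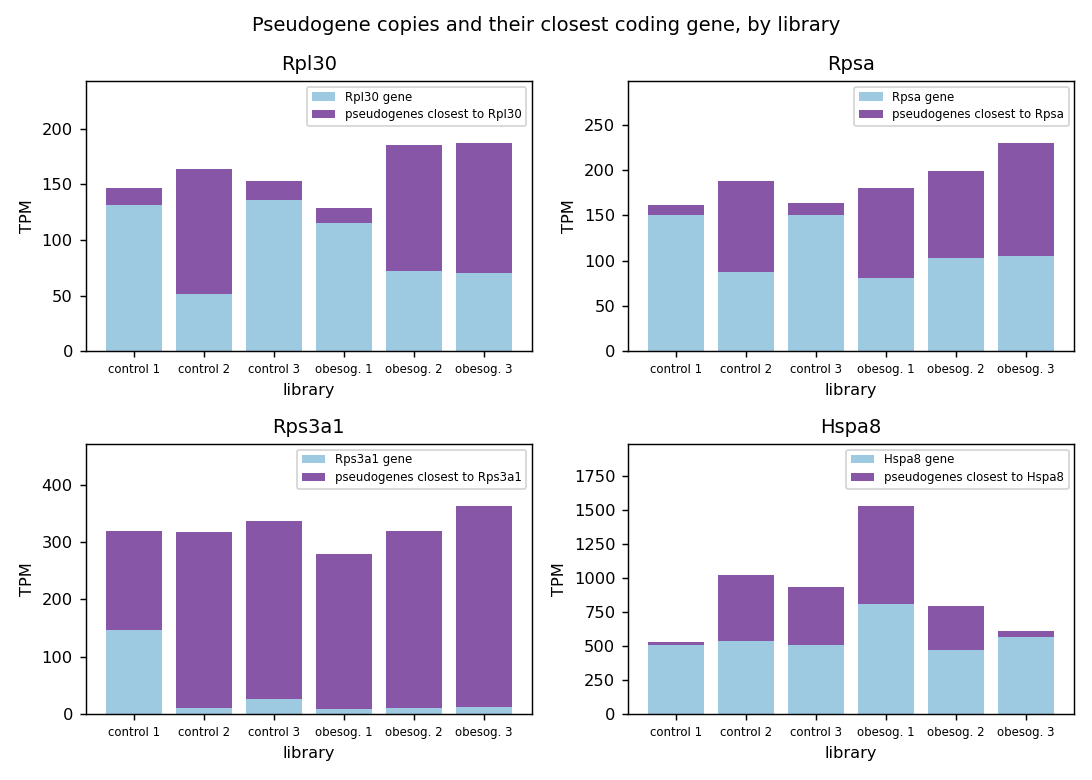
Stacked bars give TPM by library for 4 coding genes (light) and the summed pseudogenes closest to each (dark). For Rpl30 the split between gene and copies shifts between libraries of the same diet more than the total. For Rpsa and Rps3a1 it does so under the control diet only, and for Hspa8 the total moves with the copies.

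Wide ranges between libraries were also counted over all abundant copies, without counting how often gene and copies moved in opposite directions. Of 61 coding genes whose copies had a summed mean of at least 50 TPM, the copies varied by more than the joint total in 44, measured as the highest over the lowest library. The total contains the copies, so a narrower range of the total does not by itself show an exchange with the gene, and the median range was 1.84-fold for copies and 1.64-fold for totals. A range of at least 3-fold was seen for the copies of 15 genes and for the joint total of 6. The total ranged 65.2-fold for 9930111J21Rik2, whose copy is Gm12250, 9.84-fold for Rpl3 and 7.35-fold for Glo1, so their copies moved the total too. Of 106 members with a mean of at least 20 TPM, 20 had a highest library at least 20-fold above the lowest or a library at 0. Of 148 members with a mean of at least 10 TPM, 18 were listed at 0 in at least 1 library. Gm14539, a copy of the ATP synthase accessory gene Usmg5 with 100% identity, was at 389.5 TPM in control library 3 and at 0 in the other 5 libraries. Ndufa12-ps measured 82.8, 82.0 and 84.5 TPM under the control diet and 6.43, 2.16 and 116 TPM under the obesogenic diet. Glo1-ps was at 133 and 170 TPM in control library 3 and obesogenic library 3, and at no more than 2.40 TPM in the other 4 libraries. In none of these 3 did the libraries separate by diet.

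A pair of members was high in a single library. Gm12250, known as an interferon-inducible GTPase gene, has 68.4% identity to its closest coding gene, and BC023105 has 94.4%. Both, like the 3 members just named, were chosen after their values were seen. Gm12250 was listed at 316 TPM in obesogenic library 2 and at 1.97 to 5.69 TPM in the others, and BC023105 at 118 TPM there and 0.459 to 5.68 TPM elsewhere. The closest coding gene of Gm12250, 9930111J21Rik2, was also high in that library, at 42.0 TPM against 3.53 to 5.62 TPM in the others. The B and plasma cell marker list summed to 75428 TPM in obesogenic library 2 and to 24.7 to 135 TPM elsewhere, with 0 of its 6 markers at 0 throughout. Its part in these values was not tested.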

How the data were processed

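Poly(A) RNA from optic nerve was sequenced in 6 libraries, 3 per diet, with the SMART-Seq mRNA kit per the labels' protocols. The authors deposited transcript abundances in TPM, which divide by transcript length and keep no depth, so depth is unknown and values carry no counting interval. Per the submitters' processing notes, featureCounts 2.0.3, Subread, STAR 2.7.9a and DRAGEN were used, in roles that are not stated. The sources used here do not give the software behind TPM, its genome build or annotation, or how reads that fit several copies were shared out.

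Repeated lines of a transcript (110028 lines, 109383 transcripts) were counted once. Values were used as deposited. Transcripts with at least 1 TPM in at least 3 libraries were tested as log2(TPM + 1), obesogenic minus control, with lmFit and eBayes with trend (limma 3.58.1, R 4.3.3, two-sided), and p-values were adjusted by Benjamini-Hochberg over all 35408. This scale understates the change of low transcripts. Sums over members carry no test. The closest gene was the best blastn 2.17.0 hit (dc-megablast, plus strand, e-value 1e-10) among M21 protein-coding transcripts of other genes. A gene with an established symbol was preferred where its bit score reached 90% of the best.

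Members named were the 10 of highest mean, up to 8 non-overlapping tested members per direction by p, and 6 per zero pattern by mean; others were chosen after their values were seen. Members and lists were chosen with earlier results of these data known. The fit was run on simulated data with the same noise for every transcript, which checks the computation and not how values vary in these libraries. Alternatives covered pseudocount, filter, scaling, trend, replicate block, gene sums and leaving out each library. Figures were drawn with matplotlib 3.10.9 in Python 3.11.15.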

Additional observations from a re-analysis of the deposited data

How the results depend on the processing

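The number of members called by diet was 1. It stayed 1 with a filter on the mean, with listed transcripts rescaled to equal totals, without the eBayes trend and with transcripts summed to genes. It was 0 with a pseudocount of 0.1, with no filter, after rescaling without immunoglobulin genes and with the sample number as a replicate block, and it was 0 (lowest and highest both 0) when any 1 library was left out. The cause of these losses was not tested, and leaving out a library leaves fewer samples. In the replicate block the adjusted p of Gm9836 was 0.411. Same-numbered libraries had correlations of deviations from the diet means of -0.0132, 0.0596 and 0.0490. These values show no pairing by number, but with so few libraries they cannot exclude it. The difference in share moved by less than the spread between libraries (pooled SD 0.185) under every alternative run. It lay from -0.0880 to 0.152 percentage points with 1 library left out and from 0.0426 to 0.202 otherwise. The value of 0.202, with immunoglobulin genes left out of the total, was itself above that SD. With presence set at 0.1 TPM, 13 members were obesogenic only and 10 control only, and leaving out 1 library gave 30 to 58 and 20 to 41. Log2 changes that reversed were all of uncalled members. Without obesogenic library 2 Gm10123 was at 0.12, Gm12918 at -0.0055 and Gm15459 at -0.10, without control library 1 Gm12918 was at -0.00015 and Gm15459 at -1.42, and without obesogenic library 1 or 3 Gm15459 was at -0.68 and Oaz1-ps at -0.045. With any 1 library left out, Gm10123 ran from -0.40 to 0.12, Gm12918 from -0.0055 to 0.10, Oaz1-ps from -0.045 to 0.33 and Gm15459 from -1.42 to 1.87. Of the other comparisons for 26 tested members named by rule, 347 kept direction and call, and 10, all of Gm9836, lost the call.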

Other observations

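Other pseudogene classes were smaller in TPM. Transcribed processed pseudogenes (124 above 0) took 0.194% ± 0.00584 of listed TPM in control and 0.219% ± 0.0580 in obesogenic libraries (SD, n = 3), and unprocessed pseudogenes (276) took 1.02% ± 0.190 and 0.740% ± 0.248. Of the members, 12 carry the type protein-coding in GENCODE M21 under the same identifier, among them Rps12-ps3, Gm4353 (closest to the nucleoporin gene Nup35, mean 9.87 TPM) and Gm10273 (closest to the mitochondrial import gene Timm23, 15.4 TPM in control library 3, 11.4 TPM in obesogenic library 1 and 0 in the other 4 libraries).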
